A study of Danio rerio with 9 samples.

Results

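Clustered protocadherins are cadherin-like cell surface proteins whose genes stand in long arrays of similar copies. In zebrafish the arrays form cluster 1, with the alpha genes pcdh1a and the gamma genes pcdh1g, and cluster 2, with pcdh2a and pcdh2g. The genes were taken by symbol, as rows of the count table that start with pcdh1a and a digit, pcdh1g, pcdh2a or pcdh2g. This gave 42 of 24614 genes, of which 3 were pcdh1a, 15 pcdh1g, 11 pcdh2a and 13 pcdh2g. RNA came from whole zebrafish embryos at 24 hours after fertilization, in 3 groups of 3 libraries that differed in the injected morpholino: control, dhps or eif5a1/2. A morpholino is an antisense oligomer that blocks translation or splicing of its target. Deoxyhypusine synthase, made from dhps, catalyses the opening step of hypusination, the modification of a lysine in the translation factor eIF5A, which eif5a and eif5a2 encode. Strain, dose, the sequences of the morpholinos and the number of embryos in a library are not given in the labels, and the treatment notes count the 24 hours from the morpholino. The labels do not say whether replicates came from separate clutches, so the p-values measure only the spread between these libraries.

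As background, each variable exon of a protocadherin cluster has its own promoter and codes for the extracellular cadherin repeats, the membrane span and the start of the cytoplasmic part. The alpha and gamma subclusters of mammals splice each variable exon to shared constant exons, and single neurons switch on small random sets of promoters. The proteins bind like proteins on neighbouring membranes, which in mouse serves self-avoidance of neurites and neuron survival. The members are described below as alpha and gamma genes of each cluster, followed by the genes called C-type here by the letter c in their symbol. The C-type genes of mouse are expressed less randomly.

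The 9 libraries held 15952644 to 17482536 expected counts each, and the 42 genes took 0.00283% to 0.00587% of them. CPM here means counts scaled to library totals that were adjusted by TMM, which gives each library its own factor. Values given below by library totals leave these factors out. The eif5a gene stood at 1360 ± 169 CPM (SD, n = 3) in control embryos and at 227 ± 12.7 CPM in eif5a1/2 embryos. Its adjusted p in this comparison was 0.000188 in edgeR's quasi-likelihood test. The dhps gene stood at 14.4 ± 1.35 CPM in control and 9.37 ± 1.02 CPM in dhps embryos, with an adjusted p of 0.0485 in the same test. Of the 3 target genes tested, eif5a, eif5a2 and dhps, only eif5a was called in eif5a1/2 against control. The eif5a2 gene was not called there. The libraries also differed along an axis that only partly follows the groups, measured as the slope of each gene's log2 deviation on its relative transcript length. The slope was positive in all 3 dhps libraries, control 2 and eif5a1/2 2, at 0.0361 to 0.134, and negative in the other 4, at -0.125 to -0.0742. The leading principal component held 62.6% of the variance and put the same 5 libraries on one side. No dhps library had a negative slope, so dhps could be compared with control only among libraries of positive slope, where control has 1.

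The 42 listed clustered protocadherins were sparse at this age. Their symbols skip numbers, as between pcdh1a4 and pcdh1a6, so the list may not hold every gene of the arrays. All sums below cover the listed genes only. The members summed to 667.7, 1025.8 and 541.0 reads in control libraries 1 to 3, to 957.3, 649.4 and 675.5 in dhps libraries, and to 451.9, 865.0 and 550.4 in eif5a1/2 libraries. These reads overlapped between groups, and control 2 and eif5a1/2 2 were the highest of their groups. Scaled to CPM, the sum was 47.7, 53.7 and 42.0 in control, 47.5, 34.6 and 35.3 in dhps, and 34.9, 40.5 and 34.5 in eif5a1/2. On that scale eif5a1/2 lay below control without overlap (log2 -0.38), as 12.4% of all genes tested did not overlap there in either direction. The dhps sum overlapped with control (log2 -0.29). By TPM and by library totals all groups overlapped. Only 8 members had a value above 0 in all 9 libraries, 7 had one in a single library, and 5 never exceeded 3 reads. Cluster 1 gamma genes held 78.4% of all member reads and cluster 1 alpha genes 11.7%. Cluster 2 held the rest, with 8.68% for pcdh2g and 1.17% for pcdh2a. In pcdh2a 63 of 99 values were 0 and in pcdh2g 81 of 117, against 16 of 135 in pcdh1g. On the TPM scale, which is per transcript length, 4 members averaged at least 1 over the libraries. These were pcdh1g1 at 3.38 TPM, pcdh1g3 at 2.79, pcdh1g2 at 1.93 and pcdh1g9 at 1.16.

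**Figure D1:**
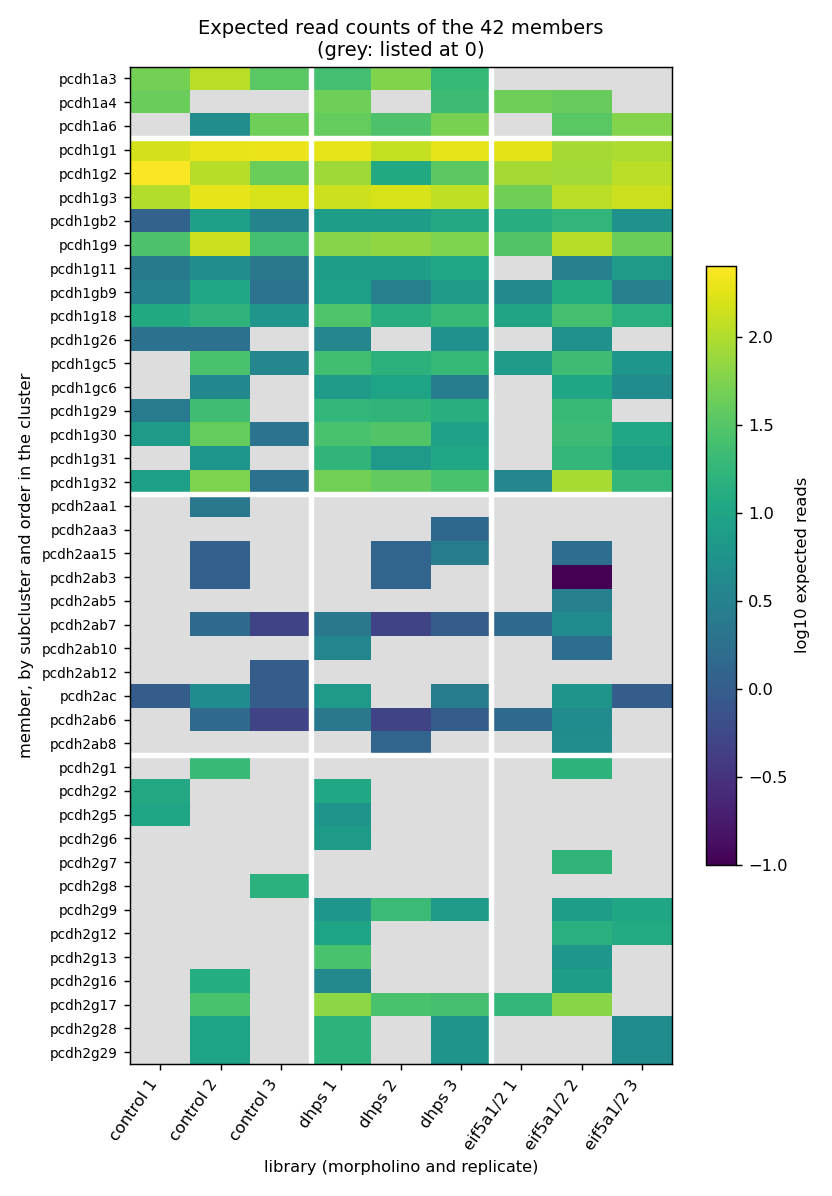
Expected reads of the 42 members in each of the 9 libraries, as log10 of the reads by colour with 0 in grey. Rows follow the subclusters and the order of genes in each cluster; reads concentrate in pcdh1g1, pcdh1g2 and pcdh1g3, and the cluster 2 rows are mostly grey.

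The file splits reads between similar copies, so single members are less certain than their sums. Here a value counts as whole within 0.02 reads. The 3 pcdh1a genes together gave a whole number of reads in 9 of 9 libraries, although 16 of their 18 values above 0 were fractional. The pcdh2a sum was whole in 8 of 9 libraries, the pcdh2g sum in 4 and the pcdh1g sum in 1. In 2 pairs, pcdh2ab6 with pcdh2ab7 and pcdh2g28 with pcdh2g29, both genes carried the same count in every library. The sources used here do not give the strand setting of the counting, so reads from antisense transcripts cannot be told apart.

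The summed cluster 1 alpha reads were lowest in eif5a1/2 embryos on the CPM scale, while of the single genes only pcdh1a3 had its lowest mean there. The pcdh1a sum was 6.5, 6.02 and 6.13 CPM in control libraries 1 to 3, 5.35, 4.53 and 4.86 in dhps libraries, and 3.4, 3.47 and 3.64 in eif5a1/2 libraries. The 3 groups did not overlap on this scale, with control highest, dhps between and eif5a1/2 lowest. Taken singly, 30.9% of all genes tested did not overlap in dhps against control. The shares were 12.4% in eif5a1/2 against control and 20.9% in eif5a1/2 against dhps. The alpha sums rest on 44 to 115 reads a library. The means were 6.22 ± 0.251, 4.92 ± 0.415 and 3.5 ± 0.123 CPM (SD, n = 3), a log2 difference from control of -0.34 for dhps and -0.83 for eif5a1/2, and of -0.49 for eif5a1/2 against dhps. No p was computed for a sum of members.

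How far the alpha sum differed from control depended on the scaling. By library totals alone the dhps difference was 0.03 on the log2 scale and by summed TPM 0.26, both with overlapping groups, so its direction turned. By library totals the median log2 fold change of all genes was itself 0.364 in dhps against control. With TMM scaling that median was 0.00. Setting the alpha sum beside the median gene by library totals therefore only restates the CPM difference, and is no second measure of it. No such median is given here for TPM. The eif5a1/2 difference from control was -0.66 by library totals, without overlap, and -0.52 by TPM, where the groups overlapped at 0.33 to 0.67 TPM against 0.52 to 0.94. Against dhps, eif5a1/2 was lower without overlap on all 3 scales, at -0.49, -0.69 and -0.78. Within the libraries of positive length slope eif5a1/2 against control was -0.8 (1 library each), and within those of negative slope -0.84 (2 libraries each). For dhps against control the value was -0.29 within those of positive slope, with 1 control library. On the CPM scale the alpha sum overlapped between libraries of positive slope, at 3.47 to 6.02, and of negative slope, at 3.4 to 6.5. On the TPM scale it did not, at 0.67 to 0.98 in the 5 positive and 0.33 to 0.64 in the 4 negative libraries. The part of the axis in the alpha difference was not tested.

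**Figure D2:**
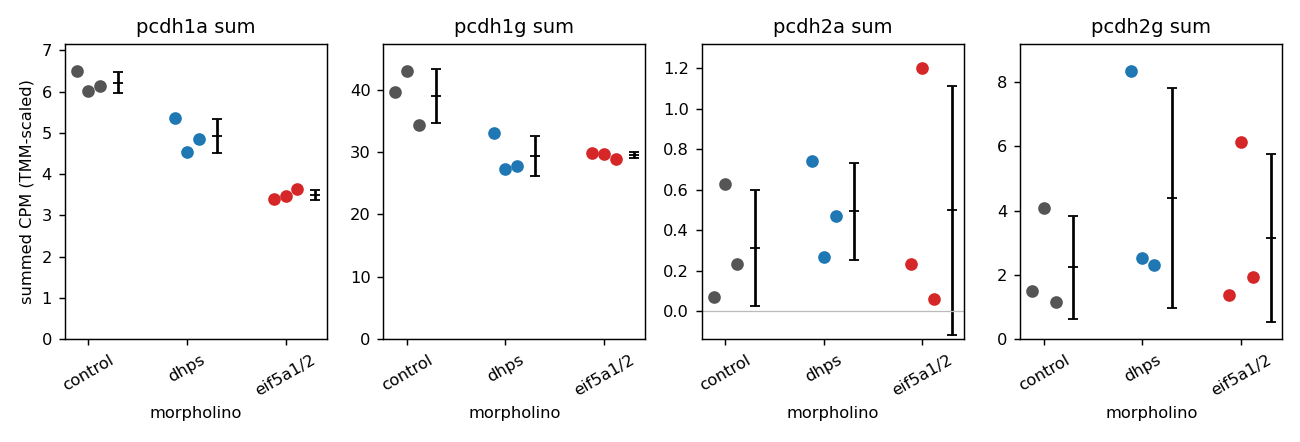
Summed CPM of each subcluster (pcdh1a, pcdh1g, pcdh2a, pcdh2g) by group; points are libraries and the bar is the mean with its SD over 3 libraries. The pcdh1a points lie at 6.02 to 6.5 CPM in control and at 3.4 to 3.64 CPM in eif5a1/2 without overlap, while the pcdh2a and pcdh2g points overlap widely.

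On the CPM scale, the summed neuron marker genes ordered the groups as the alpha sum did. The neuron genes were not summed by library totals or TPM, where the dhps difference of the alpha sum turned. Their summed level was 853 to 896 CPM in control, 622 to 672 in dhps and 539 to 604 in eif5a1/2 libraries. No library of one group reached the range of another. Of the 22 neuron genes tested, 20 lay below 0 in dhps against control and 22 in eif5a1/2 against control. Their median log2 fold changes were -0.18 and -0.47, beside 0.00 and 0.01 over all genes. In dhps against control 50.2% of all genes lay above 0. That share is not given for the 2 eif5a1/2 comparisons. The median over all genes there was 0.01 against control and 0.00 against dhps. Over all genes tested, 1.33% were called in dhps against control and 0.153% in eif5a1/2 against control. In each, 1 gene was called: nefmb, a neurofilament subunit, fell in dhps by 0.78 on the log2 scale (adjusted p = 0.0344), and tubb5, a neuronal tubulin, fell in eif5a1/2 by 0.85 (adjusted p = 0.0472, both in edgeR's quasi-likelihood test). In eif5a1/2 against dhps, where 1.83% of all genes were called, 18 lay below 0. There sypa, a synaptic vesicle protein gene, fell by 0.55 (adjusted p = 0.0465, same test). None of the matched neuron genes was at 0 in all libraries. The part of these markers in the alpha difference was not tested, and in whole embryos fewer cells of a type and less RNA per cell cannot be told apart.

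The split of the alpha reads between pcdh1a3, pcdh1a4 and pcdh1a6 changed from library to library. The pcdh1a3 gene (gene ID 497126) had 48.4, 110.4 and 33.8 reads in control, 24.4, 56.7 and 19.0 in dhps, and 0 in every eif5a1/2 library. Its neighbour pcdh1a4 (497127) had 42.6, 0 and 0 reads in control, 44.4, 0 and 21.7 in dhps, and 44.0, 40.2 and 0 in eif5a1/2. For pcdh1a6 (497129) the reads were 0, 4.6 and 45.2 in control, 39.2, 28.3 and 52.3 in dhps, and 0, 33.8 and 58.0 in eif5a1/2. Each of the 3 was the leading alpha gene in 3 libraries. As a share of alpha TPM, pcdh1a3 ranged from 0% to 95.7% and the other two from 0% to 100%. In eif5a1/2 library 1 all alpha reads stood under pcdh1a4, and in library 3 all under pcdh1a6.

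Among the members that could be tested one by one, pcdh1a3 was called lower in eif5a1/2 embryos. By listed reads it was at least 21.2-fold lower than in control (3.96 ± 1.64 CPM) and at least 9.32-fold lower than in dhps (1.74 ± 1.12 CPM). These bounds take 3 reads per library as the floor for the libraries at 0. The floor does not cover reads that the counting may have given to pcdh1a4 or pcdh1a6. Without dhps 2 the bound against dhps was at least 5.89-fold, and without control 2 that against control was at least 16.3-fold. The adjusted p in edgeR's quasi-likelihood test was 0.0296 against control, where 0.153% of all genes tested were called, and 0.0183 against dhps, where 1.83% were. In dhps against control its log2 fold change was -1.19 ± 0.50 (SE; adjusted p = 0.248). The authors' deposited table gave pcdh1a3 a log2 value of -8.45 (q = 1.84e-07) against control and -7.24 (q = 3.48e-05) against dhps. The control call was lost by library totals alone (adjusted p = 0.0925), with limma-voom (0.0649) and with the 2 groups alone (0.129), and at an adjusted p under 0.01. It remained in 1 of 9 fits that each left out a library, the one without dhps 2 (adjusted p from 0.0388 to 0.166 over the 9). The call against dhps remained in 7 of 9, was lost without dhps 1 or without eif5a1/2 3 (0.0173 to 0.0765), and was also lost with the 2 groups alone (0.0545). In eif5a1/2 against control pcdh1a4 was at log2 0.79 ± 1.64 (adjusted p = 0.9) and pcdh1a6 at 0.55 ± 1.28 (adjusted p = 0.911). There the fold of pcdh1a3 exceeded that of the alpha sum. Whether reads moved between the copies in counting was not tested.

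**Figure D3:**
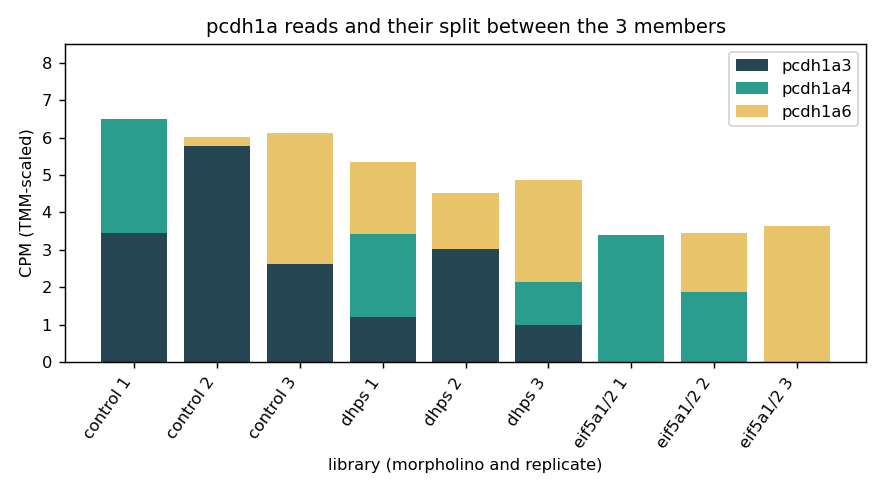
CPM of pcdh1a3, pcdh1a4 and pcdh1a6 stacked by library, so that the bar height is the alpha sum. The heights order the groups while the parts change: pcdh1a3 is missing from the 3 eif5a1/2 bars, and pcdh1a4 or pcdh1a6 alone makes up 2 of them.

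Cluster 1 gamma genes carried most of the reads of the clustered members. The pcdh1g sum was 39.6, 43.0 and 34.4 CPM in control, 33.0, 27.3 and 27.7 in dhps, and 29.9, 29.7 and 28.9 in eif5a1/2 libraries. Both knockdown groups lay below control without overlap, at log2 differences of -0.41 and -0.4, and beside each other at 0.01. By library totals these differences were -0.06 and -0.26, and by TPM -0.01 and -0.26, with overlapping groups in each case. The medians over all genes by library totals were 0.364 and 0.175. On the CPM scale the groups did not overlap for 30.9% and 12.4% of all genes tested, in the same order.

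The gamma genes pcdh1g1, pcdh1g2 and pcdh1g3, the A-type genes that stand first in the gamma array, held 52.7% of all member reads; they were set apart after their values were seen. The pcdh1g1 gene had 10.8, 10.1 and 15.4 CPM in control, 9.38, 6.64 and 9.72 in dhps, and 14.2, 4.06 and 5.96 in eif5a1/2 libraries. All dhps values were under all control values, while eif5a1/2 1 lay within the control range. The pcdh1g2 gene had 16.9, 5.76 and 3.31 CPM in control, 4.06, 0.623 and 1.84 in dhps, and 6.8, 3.96 and 7.04 in eif5a1/2. Control 1 stood far above the rest, dhps ran lowest, and each pair of groups overlapped. For pcdh1g3 the values were 7.21, 9.96 and 12.2 CPM in control, 6.88, 8.41 and 6.19 in dhps, and 3.57, 5.15 and 8.34 in eif5a1/2. Here eif5a1/2 ran lowest, with 1 library inside the control range.

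None of the 3 passed the test across all genes in either knockdown in the fit to 9 libraries without pairing. Against control, pcdh1g1 was at log2 -0.49 ± 0.40 in dhps (adjusted p = 0.462) and -0.60 ± 0.40 in eif5a1/2 (adjusted p = 0.724), in edgeR's quasi-likelihood test. The pcdh1g2 gene was at -1.98 ± 0.69 in dhps (adjusted p = 0.183); DESeq2 gave it -1.99 with an adjusted p of 0.0466. With 1 library left out its edgeR value ran from -2.80 to -1.07 and its adjusted p from 0.0798 to 0.536. For pcdh1g3 the eif5a1/2 value was -0.78 ± 0.30 (adjusted p = 0.471). With replicate numbers as a block in a fit of control and eif5a1/2 alone, chosen after seeing the data, it was called lower, at -0.82 (adjusted p = 0.0311). True pairs were not established, and that fit called 351 genes of the table against 26 in the fit to 9 libraries. Summed, the 3 genes stood at 34.9, 25.8 and 30.9 CPM in control, 20.3, 15.7 and 17.8 in dhps, and 24.6, 13.2 and 21.3 in eif5a1/2. The eif5a1/2 sum lay below control without overlap by CPM, by library totals and by TPM, and the dhps sum by CPM alone. By CPM the groups did not overlap for 12.4% and 30.9% of all genes tested in these comparisons.

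The sum of the other 12 gamma genes did not separate the groups. They summed to 4.77, 17.2 and 3.52 CPM in control, 12.7, 11.6 and 9.94 in dhps, and 5.27, 16.5 and 7.53 in eif5a1/2 libraries. Groups overlapped, and the high libraries were the 5 of positive length slope, at 9.94 to 17.2 CPM against 3.52 to 7.53 in the 4 others. The sum of pcdh1g1 to pcdh1g3 ran the other way on the CPM scale, at 13.2 to 25.8 against 21.3 to 34.9, but not by TPM, at 6.53 to 10.8 against 6.78 to 9.64. By reads per TPM relative to the median gene, these 3 had a transcript length of 1.05 to 1.1, while the other 12 had 1.24 to 2.25 and the alpha genes 2.67 to 2.81. Among the libraries of positive slope, control 2 stood above all dhps libraries for both sums. It was at 17.2 CPM against 9.94 to 12.7 for the 12 genes, and at 25.8 against 15.7 to 20.3 for pcdh1g1 to pcdh1g3. The part of the axis in any of these differences was not tested.

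**Figure D4:**
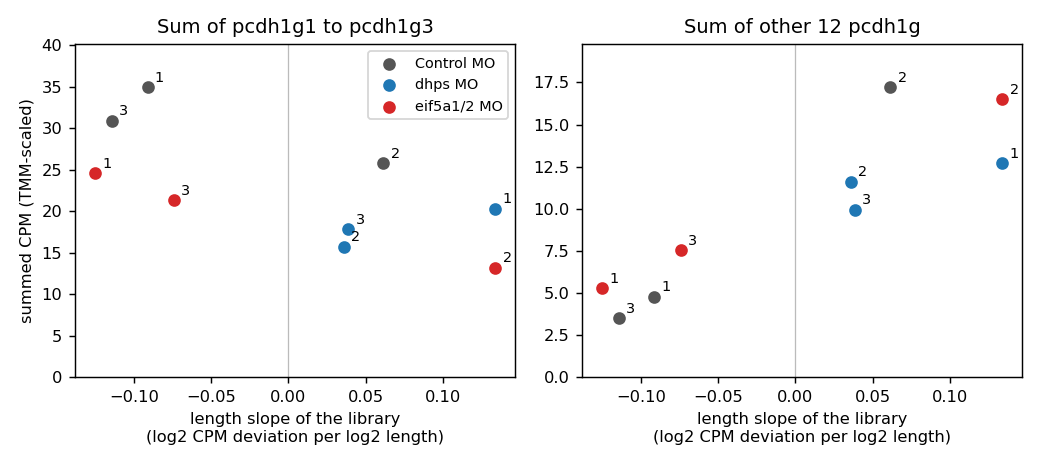
Summed CPM of pcdh1g1, pcdh1g2 and pcdh1g3 (one panel) and of the other 12 pcdh1g genes (other panel) against the length slope of the library; each point is a library, coloured by group. The 12 genes reach 9.94 to 17.2 CPM in the 5 libraries of positive slope and stay at 3.52 to 7.53 CPM in the 4 of negative slope.

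Within these 12, pcdh1g9 and pcdh1g32 were the most abundant by reads. The pcdh1g9 gene had 28.6, 133.0 and 24.2 reads in control, 60.0, 68.6 and 54.8 in dhps, and 30.3, 107.0 and 42.9 in eif5a1/2 libraries. At the far end of the array, pcdh1g32 had 8.2, 54.6 and 1.9 reads in control, 47.7, 38.3 and 26.4 in dhps, and 3.8, 90.7 and 17.8 in eif5a1/2. For both genes control 2 and eif5a1/2 2 were the highest libraries of their groups, and groups overlapped. The nearby pcdh1g31 had 0, 6.2 and 0 reads in control, 16.8, 6.7 and 10.7 in dhps, and 0, 18.1 and 8.2 in eif5a1/2, with fold changes from control of 2.21 ± 1.13 in dhps (log2; adjusted p = 0.298) and 1.89 ± 1.16 in eif5a1/2 (adjusted p = 0.706). Its dhps CPM lay above control without overlap. The B-type gene pcdh1gb2 had 1.2, 8.3 and 3.3 reads in control, 7.7, 8.1 and 11.3 in dhps, and 13.3, 17.4 and 5.6 in eif5a1/2. Its log2 fold change was 0.87 ± 0.60 in dhps (adjusted p = 0.401) and 1.49 ± 0.58 in eif5a1/2 (adjusted p = 0.475). Against dhps, eif5a1/2 values were lowest, after pcdh1a3, for pcdh1g29 at -1.24 ± 1.21 (adjusted p = 0.695) and pcdh1g30 at -0.97 ± 0.97 (adjusted p = 0.704), and highest for pcdh1g2 at 1.42 ± 0.69 (adjusted p = 0.385), pcdh1a4 at 0.63 ± 1.59 (adjusted p = 0.892) and pcdh1gb2 at 0.62 ± 0.53 (adjusted p = 0.647).

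Of the genes called C-type by their symbol only pcdh1gc5 had enough reads for the test. In the array pcdh1gc5 and pcdh1gc6 stand before pcdh1g29 to pcdh1g32, and their likeness to the C-type genes of mouse was not tested. It had 0, 26.6 and 3.7 reads in control, 23.4, 15.5 and 19.1 in dhps, and 7.3, 22.2 and 6.1 in eif5a1/2 libraries. Control 2 was its highest library, and the groups overlapped. The log2 fold change was 0.70 ± 0.84 in dhps (adjusted p = 0.62) and 0.12 ± 0.87 in eif5a1/2 (adjusted p = 0.978). For pcdh1gc6 there were 0, 3.9 and 0 reads in control, 7.5, 9.4 and 2.8 in dhps, and 0, 10.3 and 4.4 in eif5a1/2. The cluster 2 gene pcdh2ac never exceeded 6.8 reads.

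Cluster 2 was near the floor in most libraries. The pcdh2g sum was 1.5, 4.08 and 1.16 CPM in control, 8.35, 2.54 and 2.3 in dhps, and 1.39, 6.15 and 1.94 in eif5a1/2. The pcdh2a sum was 0.0714, 0.628 and 0.233 CPM in control, 0.744, 0.266 and 0.471 in dhps, and 0.232, 1.2 and 0.0627 in eif5a1/2. Groups overlapped in both. All 5 libraries of positive length slope exceeded all 4 others, at 2.3 to 8.35 against 1.16 to 1.94 CPM for pcdh2g and 0.266 to 1.2 against 0.0627 to 0.233 CPM for pcdh2a. The number of members above 0 also followed the axis, with 23 to 32 of 42 in the 5 libraries and 13 to 19 in the 4.

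The most abundant member of cluster 2 was pcdh2g17, with 0, 26.3 and 0 reads in control, 67.0, 26.9 and 24.8 in dhps, and 18.0, 62.9 and 0 in eif5a1/2 libraries. It was the only cluster 2 gene that passed the filter on low counts. Its log2 fold change was 2.00 ± 1.31 in dhps (adjusted p = 0.381) and 1.54 ± 1.32 in eif5a1/2 (adjusted p = 0.775). The pcdh2g9 gene had 0 reads in all controls, 6.1, 20.8 and 7.4 in dhps, and 0, 7.7 and 10.1 in eif5a1/2. With the floor of 3 reads per library for control, it was by listed reads at least 2.97-fold higher in dhps, a bound that was 1.71-fold without dhps 2. It did not pass the filter in the fit to 9 libraries. With 1 library left out it was tested in 7 fits and called in 0 for dhps against control. Its adjusted p in them ran from 0.0863 to 0.37 in edgeR's quasi-likelihood test. The fit without control 2 and eif5a1/2 2, given below, called it. The authors' deposited table gave it a log2 value of 5.56 with q = 0.0161 for dhps against control. In pcdh2g1 reads were present only in control 2, at 20.4, and eif5a1/2 2, at 15.8; pcdh2g12 had reads in dhps 1 and eif5a1/2 2 and 3, at 9.4, 14.3 and 11.8. In pcdh2a the leading pair pcdh2ab6 and pcdh2ab7 never exceeded 4.4 reads each.

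Across the whole module, 15 of 42 members passed the filter, which were all 3 pcdh1a, 11 pcdh1g, 1 pcdh2g and no pcdh2a gene; the other 27 were not tested. In dhps against control 0 of 15 were called at an adjusted p under 0.05, where 1.33% of all genes tested were; limma-voom also called 0. DESeq2 called 1 member, and 902 genes in all against the 226 of edgeR. At an unadjusted p under 0.05 there were 2, both lower (pcdh1a3 and pcdh1g2), against 19.7% of all genes in either direction and 11.5% lower. In 2 of the 15 the groups did not overlap, against 30.9% of all genes. Of the tested members 10 lay above 0 and 5 below, where 50.2% of all genes lay above 0, with a median log2 fold change of 0.54 beside 0.00 over all genes. With the length slope of each library added to the fit that median was -0.01, with 6 of 15 above 0. It ran from -0.05 without control 3 to 1.13 without control 2, in fits that test 17 to 20 members.

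In eif5a1/2 against control 1 of 15 was called, pcdh1a3, where 0.153% of all genes tested were, 0.0881% lower. The unadjusted p was under 0.05 for 3 members, the other two being pcdh1g3 (lower) and pcdh1gb2 (higher), and for 9.1% of all genes. Groups did not overlap for 1 member, against 12.4% of all genes (6.65% lower), and the median was 0.12 beside 0.01. With replicate numbers taken as pairs, as a block in a fit of control and eif5a1/2 alone, 2 members were called lower, pcdh1a3 and pcdh1g3. That fit called 351 genes of the table, against 26 in the fit to 9 libraries and 5 with these groups alone and no block. In eif5a1/2 against dhps 1 of 15 was called, again pcdh1a3, where 1.83% of all genes were, 0.851% lower. The unadjusted p was under 0.05 for 1 member and for 14.6% of all genes. Groups did not overlap for 1 member, against 20.9% of all genes (10.1% lower), and the median was -0.21 beside 0.00. With pcdh1a3 at its bound in place of its fitted value both medians stayed as given. They could not change, since pcdh1a3 is the lowest member either way. Both knockdown comparisons share the control libraries, and the eif5a1/2 libraries enter 2 of the 3 comparisons.

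**Figure D5:**
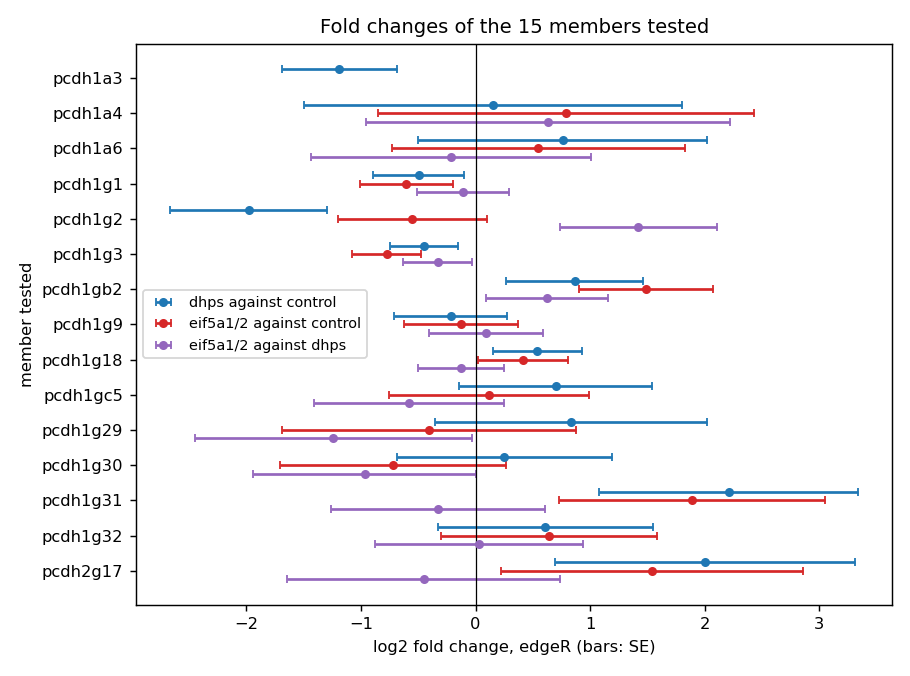
Log2 fold changes of the 15 tested members with their SE in the 3 comparisons, from edgeR's fit to 9 libraries. The pcdh1a3 points against eif5a1/2 are left out because those libraries are at 0; SE bars of pcdh1a4, pcdh1a6, pcdh1g29 and pcdh2g17 exceed 1 on the log2 scale in all 3 comparisons.

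Without control 2 and eif5a1/2 2, the libraries that stood with the dhps group on the length axis, the picture of dhps against control changed. In that fit, added after the data were seen, 8 of the 17 members tested were called, 1 lower (pcdh1g2 at log2 -2.2) and 7 higher. The 7 were pcdh1g9 at 0.69, pcdh1g29 at 3.38, pcdh1g31 at 6.31, pcdh1g32 at 2.35, pcdh1gc5 at 2.68, pcdh2g9 at 6.28 and pcdh2g17 at 8.05. The values for pcdh1g31, pcdh2g9 and pcdh2g17 are set against control libraries at 0 and are no measure of size. The same fit called 6295 genes of the table, against 226 in the fit to 9 libraries, so calls rose across the table too. The share of tested genes called in that fit is not given, so the members cannot be set against it. The remaining control and dhps libraries of that fit lay on opposite sides of the axis, so group and axis cannot be told apart in it. In it pcdh1a3 kept its calls, with adjusted p = 0.0102 for eif5a1/2 against control, where 136 genes were called, and 0.00162 against dhps, where 4858 were.

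Of the tested genes that act with the clusters, 0 were called. Over all genes tested 1.33%, 0.153% and 1.83% were called in dhps against control, eif5a1/2 against control and eif5a1/2 against dhps. In lists this short 0 calls lie near those shares. The 26 matched regulators known from mouse, including the insulator protein Ctcf, cohesin subunits, DNA methyltransferases and Smchd1, gave 0 calls among 25 tested in each comparison. Their median log2 fold changes were 0.08, 0.08 and 0.02 in dhps against control, eif5a1/2 against control and eif5a1/2 against dhps. The smallest adjusted p was 0.0728, for dnmt3ab, a DNA methyltransferase, at -0.53 in eif5a1/2 against dhps. The cohesin subunit stag2a was at 0.59 in the same comparison (adjusted p = 0.102) and at -0.52 in dhps against control (adjusted p = 0.14). Cytoplasmic partners, such as Ptk2 kinases and the Wave complex in mammals, gave 0 calls among 23 tested, with medians of 0.13, 0.13 and 0.01. Their smallest adjusted p against control was that of abi2a, a Wave complex subunit, at 0.39 ± 0.09 in dhps (adjusted p = 0.075).

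The non-clustered protocadherins, which have genes of their own outside the arrays, gave 0 calls among 15 tested in each comparison. The shares over all genes were 1.33%, 0.153% and 1.83%, in the order given above. Of these, pcdh10a had 30.1, 28.1 and 36.9 CPM in control, 22.6, 21.5 and 19.0 in dhps, and 25.3, 23.2 and 24.5 in eif5a1/2 libraries. All knockdown values lay below all control values, but the log2 fold changes of -0.59 ± 0.13 in dhps (adjusted p = 0.061) and -0.38 in eif5a1/2 (adjusted p = 0.381) did not pass. Among classical cadherins and catenins, 15 tested, cdh7 fell in dhps from 21.0 ± 1.33 to 12.2 ± 0.627 CPM (log2 -0.79 ± 0.11, adjusted p = 0.0104). The catenin gene jupa, which encodes plakoglobin, was higher in eif5a1/2 than in dhps, at 163 against 95.4 CPM (log2 0.78 ± 0.10, adjusted p = 0.00691). Both calls are from edgeR's quasi-likelihood test, as are all adjusted p-values here unless another tool is named.

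Markers of other cells varied beside the members as follows. The shares of all genes called were again 1.33%, 0.153% and 1.83%, in the same order of comparisons. Neural progenitor genes summed to 1230 to 1250 CPM in control, 959 to 1010 in dhps and 1010 to 1260 in eif5a1/2, with 18 tested. Against control 4 fell in dhps (ascl1b, ascl1a, fabp7a and her4.2), and 0 were called in eif5a1/2. Against dhps 3 were higher in eif5a1/2 (ascl1b, fabp7a and her4.2). Glial genes summed to 114 to 131 CPM in control, 78.6 to 86.3 in dhps and 107 to 117 in eif5a1/2. Of 5 tested, plp1a and olig2 fell in dhps against control, plp1a was higher in eif5a1/2 than in dhps, and 0 were called in eif5a1/2 against control. Muscle genes summed to 15500 to 22200, 13100 to 13900 and 9890 to 18900 CPM, and epidermis and yolk genes to 23500 to 28000, 22900 to 24000 and 21400 to 31700 CPM, with no gene of either list called. Their part in the member values was not tested.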

How the data were processed

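Polyadenylated RNA of 9 whole-embryo libraries was analysed in 3 groups of 3. The authors deposited 1 table with expected counts per gene, which are estimates that can be fractional, and with TPM, per the file headers. Reads were processed against GRCz11, per the submitters' processing notes; aligner, counter, annotation, strand setting and statistical test: not given in the sources used here. Further deposited tables hold the authors' comparisons as log2 fold changes, p-values and q-values, with the −log10 of the q-value in one, per the file headers. No per-sample column was left unassigned.

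Expected counts were rounded, since the planned test assumed counts. Genes with low counts were removed with filterByExpr, libraries were scaled by TMM, and the quasi-likelihood test of edgeR 4.0.16 (under R 4.3.3) was fitted to 9 libraries (6 residual degrees of freedom), with Benjamini-Hochberg adjustment over 17031 genes. Each SE of an edgeR log2 fold change was derived as its absolute value over the square root of the F statistic. CPM uses unrounded counts over TMM-scaled totals. Sums over members are descriptions with no test. The steps were tested on simulated data with a smaller spread between libraries than here and no length axis. Only genes of higher counts were changed in it, so it does not show how the test performs on sparse members. DESeq2 1.42.0 and limma 3.58.1 (voom) were alternatives, with other scalings, filters, thresholds, a replicate block, a length covariate and libraries left out.

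Named members are the 3 of highest mean TPM in each subcluster, all called members, the 3 highest and lowest fold changes in each comparison and tested C-type genes; pcdh1g9, pcdh1g32 and pcdh1gc6 were added after their values were seen. From related lists, called genes and a few of smallest adjusted p are named. The members and lists were chosen with earlier results of these data known.

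Replicate numbers, taken from the titles, were checked by correlating deviations from group means. Same-numbered control and eif5a1/2 libraries correlated at 0.403, 0.76 and 0.318, and the numbers were taken as pairs there. However, eif5a1/2 1 correlated best with control 3. The pair at 0.76, control 2 and eif5a1/2 2, also shared a positive length slope that no other library of these groups had. True pairs were therefore not established. With dhps the numbers were not taken as pairs, since values of -0.413 to 0.121 were found. A RefSeq table of the assembly GRCz12tu gave 40 of 42 members and was used for the order of genes and synonyms, with no coordinates. No sequence is shown.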

Additional observations from a re-analysis of the deposited data

How the results depend on the processing

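The counts of members called and the subcluster differences were recomputed under each alternative. In dhps against control DESeq2 called 1 member, and the fit without control 2 and eif5a1/2 2, chosen after seeing the data, called 8; leaving out 1 library gave 0 to 0. In eif5a1/2 against control 0 were called by library totals alone, with the 2 groups alone, by limma-voom and at an adjusted p under 0.01, and 0 to 1 with 1 library left out. In eif5a1/2 against dhps 0 were called with the 2 groups alone and at an adjusted p under 0.01, 2 without control 2 and eif5a1/2 2 (pcdh1a3 and pcdh1g29), and 0 to 1 with 1 library left out. The cause was not tested.

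With the replicate block in the fit to 9 libraries 0, 1 and 1 members were called in the 3 comparisons, as without it. In the fit of control and eif5a1/2 alone the replicate block, chosen after seeing the data, gave 2. The block changed no other member call.

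Library totals moved the median log2 fold change of all genes to 0.36, 0.17 and -0.19 in dhps against control, eif5a1/2 against control and eif5a1/2 against dhps. In that order the pcdh1a differences became 0.03, -0.66 and -0.69 by library totals and 0.26, -0.52 and -0.78 by TPM, and the pcdh1g differences -0.06, -0.26 and -0.2, and -0.01, -0.26 and -0.24. The sum of all members turned to 0.06 (totals) and 0.09 (TPM) in dhps against control, and moved to -0.22 and -0.18 in eif5a1/2 against control. Within libraries of positive length slope pcdh1g was -0.53 in eif5a1/2 against control. Without eif5a1/2 2, with or without control 2, pcdh2a was -1.74 in eif5a1/2 against dhps.

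With 1 library left out, the differences ran, in the same order, from -0.4 to -0.28, -0.86 to -0.8 and -0.55 to -0.42 for pcdh1a; from -0.51 to -0.34, -0.49 to -0.33 and -0.04 to 0.1 for pcdh1g; from 0.2 to 1.7, -1.08 to 1.71 and -1.74 to 0.53 for pcdh2a; from 0.11 to 1.72, -0.43 to 1.25 and -1.4 to 0.39 for pcdh2g; and from -0.45 to -0.2, -0.47 to -0.29 and -0.18 to 0.07 for all members.

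Over all genes 226, 26 and 311 were called. DESeq2 called 902, 206 and 811, the length covariate 838, 708 and 1356, an adjusted p under 0.01 gave 65, 5 and 79, and leaving out 1 library 46 to 844, 5 to 19 and 73 to 864. The 2 groups alone gave 5 in eif5a1/2 against control and 170 against dhps, and the replicate block 14 and 188. Library totals gave 66 higher and 28 lower, 9 and 4, and 57 and 81, where TMM gave 107 and 119, 11 and 15, and 166 and 145. Without control 2 and eif5a1/2 2 the counts were 6295, 136 and 4858, and the paired fit of control and eif5a1/2 gave 351. Of the 42 members 27 had too few reads to be tested, 23 of them in cluster 2.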

Other observations

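Some genes outside the clusters had a profile over the 9 libraries close to that of the summed members. Closeness was Pearson's r on log2 CPM with a pseudocount of 0.1. They were the highest values of a search through the 17031 genes tested, with the members left out. The 5 closest were nrxn2a, a neurexin of synapses, at 0.948, ccdc177 at 0.935, arhgef9a at 0.933, kif1ab, an axonal kinesin, at 0.915 and setbp1 at 0.914. These libraries share depth, groups and the length axis, and the values describe only these libraries. In nrxn2a the level was 2.07, 2.93 and 1.71 CPM in control, 2.48, 1.49 and 1.31 in dhps, and 1.24, 2.06 and 1.25 in eif5a1/2 libraries, with control 2, dhps 1 and eif5a1/2 2 the highest of their groups.

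The authors' deposited table listed 40, 38 and 37 of the members in dhps against control, eif5a1/2 against control and eif5a1/2 against dhps, and gave 1 of them a q under 0.05 in each. Over all genes listed there, 4.86%, 0.287% and 2.0% had a q under 0.05.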
